A study of Homo sapiens with 12 samples.

Results

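A set of 10 keratin genes was followed in H3K27ac chromatin immunoprecipitation sequencing (ChIP-seq) of 2 human pancreatic ductal adenocarcinoma cell lines. H3K27ac, acetylation of lysine 27 of histone H3, is found at promoters and enhancers in use. The genes were KRT7, KRT8, KRT18 and KRT19, which are keratins of simple and ductal epithelium, KRT5, KRT6A, KRT14 and KRT17, which are keratins of basal or stressed stratified epithelium, and KRT80 and the hair keratin KRT81. They were chosen by name, 10 out of 19970 protein-coding genes on chromosomes 1 to 22 and X, with no use of measured values in the rule. Earlier results of these data were known when the choice was made. For each gene the bp under peaks were counted in a window made of the gene body, as RefSeq places it on GRCh38, and 5 kb beyond either end. The value is called covered length below, and it measures how far peaks extend, not how high the signal is.

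Keratins are intermediate filament proteins that assemble as pairs of 1 type I and 1 type II chain. KRT8 (type II) pairs with KRT18 or KRT19 (type I) in simple epithelia such as the pancreatic duct, where KRT7 (type II) is also made. KRT5 (type II) and KRT14 (type I) form the filaments of basal cells of stratified epithelia, and KRT6A and KRT17 are made after injury and in some tumours.

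There were 12 libraries in 6 groups of 2 (n = 2 per group throughout). The first 4 groups were bulk CFPAC1 and bulk MiaPaCa2 cells, each untreated or given 1000 U/ml of IFN-β, a type I interferon, for 2 h. The other groups were clones isolated by dilution from CFPAC1 cells that had been infected with the lentiCRISPRv2 plasmid: wild-type clones, and IRF1 knockout clones whose plasmid also expressed Cas9 and a guide RNA to IRF1, which encodes an interferon regulatory factor. Every clone therefore carried the vector, and each library of those groups was 1 clone. The labels give no IFN-β dose or time for the clones. CFPAC1 was grown in IMDM and MiaPaCa2 in DMEM, so line and medium cannot be told apart. The labels do not state separate cultures for the bulk libraries, so p-values measure the spread between these libraries, which may be technical.

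Per library, 59896 to 109861 peaks were deposited, which together spanned 63.6 to 94.8 Mb; read depth is not known. The lowest deposited -log10 q was 1.37 in IRF1 knockout clone 1 and 1.30 to 1.32 in the other libraries. The IRF1 window had 5485 and 6341 covered bp in the wild-type clones and 8271 and 14027 bp in the knockout clones, but covered length cannot show a small edit and checks nothing about the knockout. Of 6 epithelial marker genes, 6 were covered in all 8 CFPAC1 libraries, whereas CDH1, EPCAM and ESRP1 had 0 bp in every MiaPaCa2 library. Of 5 ductal markers, 4 were covered in all 8 CFPAC1 libraries; CFTR had 0 bp in wild-type clone 2 and in every MiaPaCa2 library. Of 6 mesenchymal markers, 4 were covered in all 8 CFPAC1 and 2 in all 4 MiaPaCa2 libraries, with CDH2, FN1 and SPARC at 0 bp in every MiaPaCa2 library. Of 4 acinar and islet markers, 0 were covered in all libraries of either line. INS had 0 to 3123 bp in MiaPaCa2 and CPA1 had 0 to 2384 bp in CFPAC1. Of 4 blood markers, 2 were covered in all 8 CFPAC1 and 2 in all 4 MiaPaCa2 libraries. Of 3 endothelial markers, 2 were covered in all 8 CFPAC1 libraries and 1 in all 4 MiaPaCa2 libraries. That 1 was CDH5, with 18406 to 23526 bp in MiaPaCa2. Defining epithelial markers were thus present in CFPAC1 and absent in part from MiaPaCa2.

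Promoter sequence was on hand for KRT8 and KRT5, 1 simple and 1 basal keratin of the same type II family, and is shown because their promoters had opposite peak coverage. Each line gives 250 bases before the gene start and 50 after it, 5′ to 3′ on the minus strand of chromosome 12, from RefSeq on GRCh38.p14. KRT8 lies at chr12:52926420-52926719 and KRT5 at chr12:52520345-52520644. The KRT8 window belongs to a start inside the long RefSeq extent of that gene, not to the far end of the extent. Its motifs and coverage describe that start alone, and any other KRT8 start was not examined. Capitals mark the only match found to the letters searched.
KRT8 promoter: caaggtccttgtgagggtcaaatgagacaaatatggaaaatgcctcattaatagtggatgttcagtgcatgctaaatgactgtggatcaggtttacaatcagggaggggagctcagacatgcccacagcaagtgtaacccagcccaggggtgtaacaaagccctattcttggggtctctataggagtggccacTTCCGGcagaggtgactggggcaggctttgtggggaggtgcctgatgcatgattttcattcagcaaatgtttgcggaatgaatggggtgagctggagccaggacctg
KRT5 promoter: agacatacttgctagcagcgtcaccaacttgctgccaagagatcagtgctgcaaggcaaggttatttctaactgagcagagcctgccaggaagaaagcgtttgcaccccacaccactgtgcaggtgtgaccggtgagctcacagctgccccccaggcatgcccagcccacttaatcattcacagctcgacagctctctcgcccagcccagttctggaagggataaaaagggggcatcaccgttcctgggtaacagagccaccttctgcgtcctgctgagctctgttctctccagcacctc
Short motifs were searched on both strands of both windows, and the share of all 35116 RefSeq promoters of the same length that hold each is given with it. The TATA box TATAAA occurs in 11.5% of them, the GC box GGGCGG in 45.0% and the KLF motif CCACCC in 34.3%. The AP-1 motif TGANTCA occurs in 7.71%, the ETS motif CCGGAA in 17.2%, the grainyhead-like motif AACCGGTT in 0.134% and the interferon regulatory factor core AANNGAAA in 22.8%. The KRT8 window held the ETS motif once, on the strand opposite to the printed one, at bases 194 to 199, and no other motif overlapped it. The KRT5 window held none of the 7. The KRT8 promoter window was wholly under peaks (300 of 300 bp) in 11 libraries and had 251 bp under peaks in 1 IFN-β-treated CFPAC1 library. The KRT5 promoter window had 0 bp under peaks in all 12 libraries.

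Coverage per length, as the share of each window under peaks, was higher at KRT8, KRT18, KRT19 and KRT80 than at the basal keratins in every library. KRT7 lay above the basal keratins in CFPAC1, whereas its 0 to 9.33% in MiaPaCa2 overlapped their range. KRT19 had the highest median share over the 12 libraries at 89.5% (83.1 to 97.7%), followed by KRT18 at 66.9% (52.5 to 71.4%), KRT80 at 60.3% (39.0 to 85.4%) and KRT8 at 48.4% (38.0 to 60.7%). KRT7 came next at 44.1% (0 to 55.3%), then KRT81 at 17.3% (0.685 to 37.4%), KRT5 at 5.87% (0 to 14.5%) and KRT14 at 3.07% (0 to 9.41%). KRT6A and KRT17 had a median share of 0%, with 3.86% and 1.94% as their highest values. Neighbours in this order overlapped in their ranges over libraries, apart from KRT19 and KRT18. The order pools 8 CFPAC1 and 4 MiaPaCa2 libraries and differed by line. In MiaPaCa2, KRT80 (75.0 to 85.4%) lay wholly above KRT18 (67.4 to 69.8%), and KRT7 had a median of 8.44%. In CFPAC1 the median of KRT7 (51.1%) was above that of KRT8 (45.7%), with overlapping ranges. The share of KRT19 was above that of 99.7 to 100% of the 16280 tested genes in each library, that of KRT18 above 97.8 to 99.7% and that of KRT8 above 95.3 to 98.5%. KRT80, which is expressed in several epithelia, was above 96.8 to 99.5%.

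**Figure D1:**
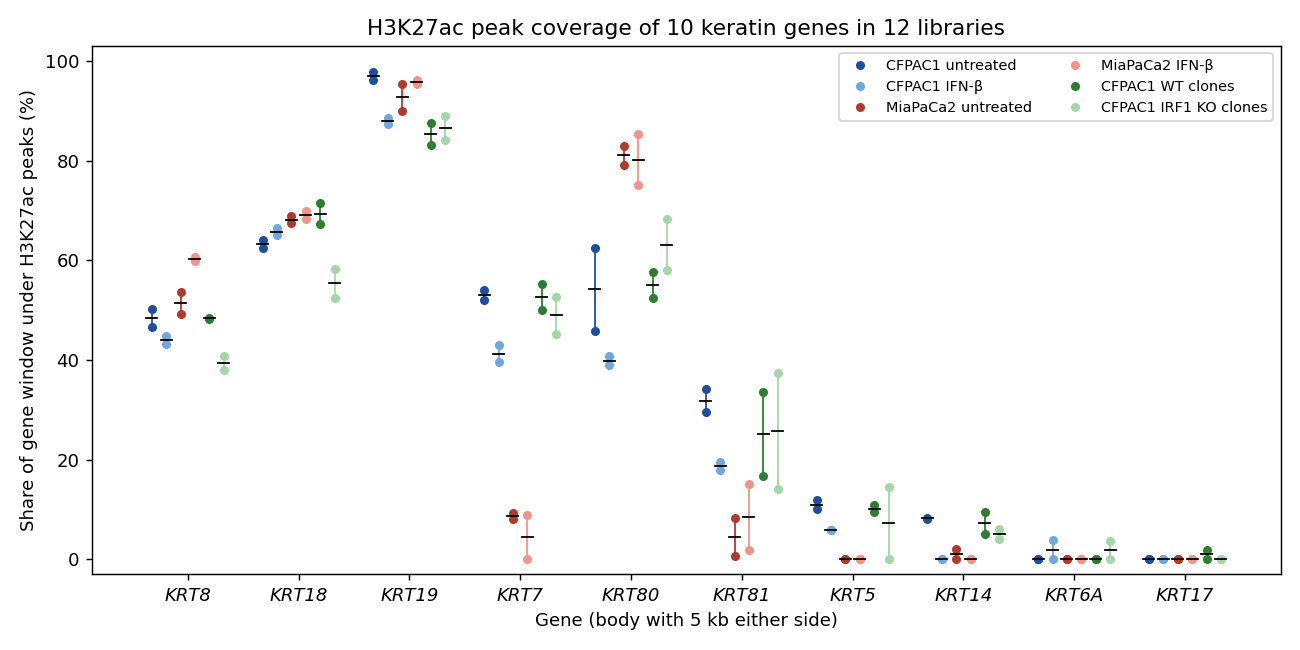
Share of each gene window under H3K27ac peaks (y axis, %) for the 10 keratin genes (x axis). Each point is 1 library, a vertical line joins the 2 libraries of a group and a black bar is their mean; KRT19 lies between 83.1 and 97.7% in all groups, KRT7 is at 39.5% or more in CFPAC1 and at 9.33% or less in MiaPaCa2, and the basal keratins are at 14.5% or less throughout.

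Windows are not all independent. The KRT8 gene (chr12:52897191-52949860) and the KRT18 gene (chr12:52948855-52952906) overlap, and 78.3% of the KRT18 window lies inside the KRT8 window. The whole KRT81 window lies inside the gene KRT86 (chr12:52274645-52309163), another hair keratin, so the values of KRT81 cannot be separated from those of KRT86. The KRT19 window shares 5274 bp with the window of KRT15, a basal keratin, and holds 274 bp of the KRT15 gene. The KRT17 window shares 3326 bp with that of KRT16. The windows of KRT5, KRT6A, KRT7, KRT14 and KRT80 overlap that of no other protein-coding gene.

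A member was called when its limma p-value, adjusted by Benjamini-Hochberg over all 16280 genes covered in at least 2 libraries, was under 0.05. Changes are differences of log2(covered bp + 500 bp) after subtraction of each library's mean over genes. The SE of each change rests on a spread pooled over all 6 groups, bulk libraries and clones together. In all, 9 members were tested, and KRT17, with a single peak of 294 bp in wild-type clone 1, was left out. Centring moved the median change of all genes by more than 0.1 in 5 comparisons. Between the untreated lines it was 0.25 with centring and 0.02 without, between the treated lines 0.22 and 0.04, and for IFN-β in CFPAC1 0.02 and -0.14. For IFN-β in MiaPaCa2 it was 0.03 with and -0.07 without centring, and for the knockout against wild-type clones -0.05 and 0.08. A change of a member is read against these medians.

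Between the untreated lines, 1 of 9 tested members was higher in MiaPaCa2 (KRT80) and 4 were lower (KRT5, KRT7, KRT14 and KRT81). Over all tested genes 36.1% were called higher and 22.5% lower, so that a call between these lines is common. Without centring these shares were 21.5% and 26.3%, so the balance of directions over all genes turned with the scaling, while the same number of members was called. With a pseudocount of 100 bp, 3 members were higher (KRT8, KRT18 and KRT80) and 3 lower (KRT5, KRT14 and KRT81). Over the 8 members with any covered bp in these 4 libraries the median change was -0.51, against 0.27 over all such genes. After IFN-β, 2 members were higher in treated MiaPaCa2 than in treated CFPAC1 (KRT8 and KRT80) and 1 was lower (KRT7), against 32.3% of all tested genes called higher and 21.0% called lower (20.8% and 23.3% without centring). The median over the 8 members covered in these libraries was -0.08, against 0.24 over all such genes.

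**Figure D2:**
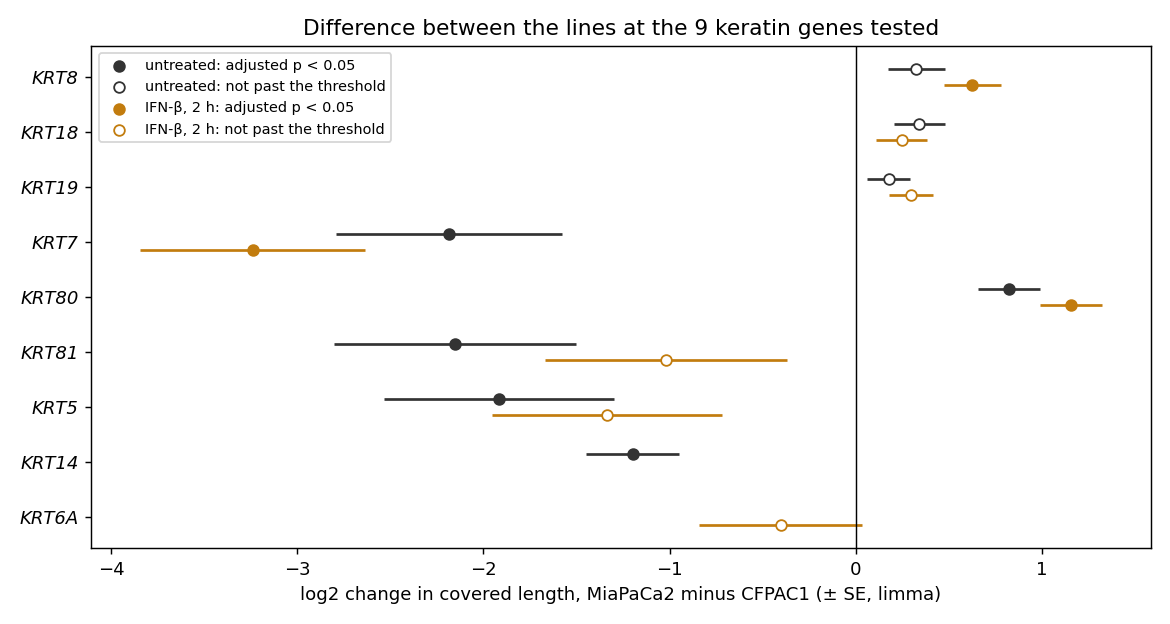
Log2 change in covered length between the lines (x axis, MiaPaCa2 minus CFPAC1, ± SE from limma) for the 9 tested keratin genes (y axis), untreated (black) and after 2 h of IFN-β (orange). Filled points passed an adjusted p of 0.05; KRT7 lies furthest to the left and KRT80 furthest to the right after treatment, and no point is drawn where all 4 libraries had 0 bp (KRT6A untreated, KRT14 treated).

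KRT7, a type II keratin of ductal and glandular epithelium (chr12:52233243-52255853), had the widest gap between the lines. Its covered length was 17626 and 17006 bp in untreated CFPAC1, 13975 and 12896 bp in treated CFPAC1, 18040 and 16322 bp in the wild-type clones and 17202 and 14725 bp in the knockout clones. In MiaPaCa2 it was 2604 and 3044 bp untreated and 0 and 2897 bp treated. All 8 CFPAC1 libraries thus lay above all 4 MiaPaCa2 libraries. The log2 change from CFPAC1 to MiaPaCa2 was -2.19 ± 0.61 (SE; limma adjusted p = 0.0121) untreated and -3.24 ± 0.61 (limma adjusted p = 0.00172) treated. The untreated call was lost with a pseudocount of 100 bp (adjusted p = 0.11), without untreated CFPAC1 replicate 1 (0.0518) and without untreated MiaPaCa2 replicate 1 (0.0593).

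The gap at KRT7 was not even along the gene. A total of 6083 bp was covered in all 8 CFPAC1 libraries and in no MiaPaCa2 library. The longest such stretch, chr12:52234090-52235914, is 1825 bp and lies inside the gene, 0.8 to 2.7 kb from its lower-coordinate end. Others at chr12:52245138-52246088 and chr12:52246289-52247304 lie 11.9 to 14.1 kb into the gene. Between these, 3 of the 4 MiaPaCa2 libraries kept a peak whose summit lay 10.8 to 11.3 kb from the lower end, with a deposited fold enrichment of 8.94, 5.84 and 7.32. The strongest KRT7 peak of 5 CFPAC1 libraries had its summit 10.7 to 11.3 kb from that end, and the strongest peak of the other 3 lay 0.5 to 0.6 kb from it. Folds are the authors' own values for each list and are not compared between libraries.

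**Figure D3:**
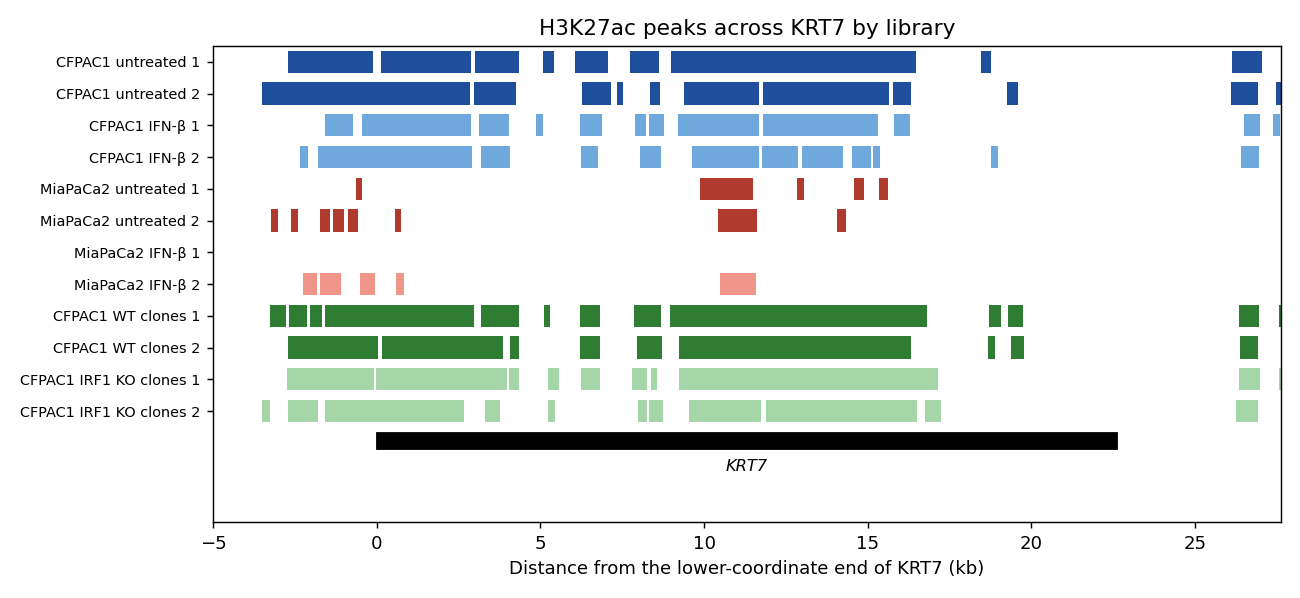
Peaks across the KRT7 window in the 12 libraries (rows, coloured by group), with distance from the lower-coordinate end of the gene in kb on the x axis and the gene as a black bar. CFPAC1 rows are filled from about the lower end of the gene and again near 11.3 kb, whereas 3 MiaPaCa2 rows hold 1 wider peak near 10.8 to 11.3 kb and short peaks elsewhere, many of them below the lower end of the gene, and 1 treated MiaPaCa2 row is empty.

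KRT8 and KRT18, the paired type II and type I keratins of simple epithelium, were covered in every library of both lines. KRT8 had 31469 and 29225 bp in untreated CFPAC1, 28102 and 26998 bp in treated CFPAC1, 33574 and 30874 bp in untreated MiaPaCa2 and 38014 and 37458 bp in treated MiaPaCa2. The untreated lines overlapped and the treated lines did not. The change between the lines was 0.32 ± 0.15 (limma adjusted p = 0.0959) untreated and 0.62 ± 0.15 (limma adjusted p = 0.00738) treated. The treated call was lost under quantile normalization (adjusted p = 0.119), without treated CFPAC1 replicate 2 (0.0503) and without treated MiaPaCa2 replicate 1 (0.0535).

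KRT18 had 8772 and 8996 bp in untreated CFPAC1, 9330 and 9140 bp in treated CFPAC1, 9672 and 9477 bp in untreated MiaPaCa2 and 9811 and 9598 bp in treated MiaPaCa2. Each MiaPaCa2 group lay above its CFPAC1 group. The change was 0.34 ± 0.14 (limma adjusted p = 0.0555) untreated and 0.25 ± 0.14 (0.156) treated, neither of which passed the threshold. With 10 kb flanks both were called, at 0.57 (limma adjusted p = 0.00472) and 0.51 (0.00925), and the untreated difference was also called with a pseudocount of 100 bp (0.0207), with peaks of -log10 q of at least 5 (0.0347) and without knockout clone 2 (0.0491). Of the KRT18 window 6689 bp, and of the KRT8 window 16363 bp, were under peaks in all 12 libraries. The 2 longest stretches of this kind in the KRT8 window, chr12:52944464-52947483 and chr12:52949449-52952170, lie in the part shared with KRT18. Only 970 bp of the KRT8 window was covered in all 4 MiaPaCa2 libraries and no CFPAC1 library, and no bp showed the opposite pattern. KRT7 had 0 bp covered in all 12 libraries, but this rests on treated MiaPaCa2 replicate 1. That library had no KRT7 peak and the fewest peaks of all (59896). In every other library chr12:52243724-52244742, inside KRT7, was under a peak.

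**Figure D4:**
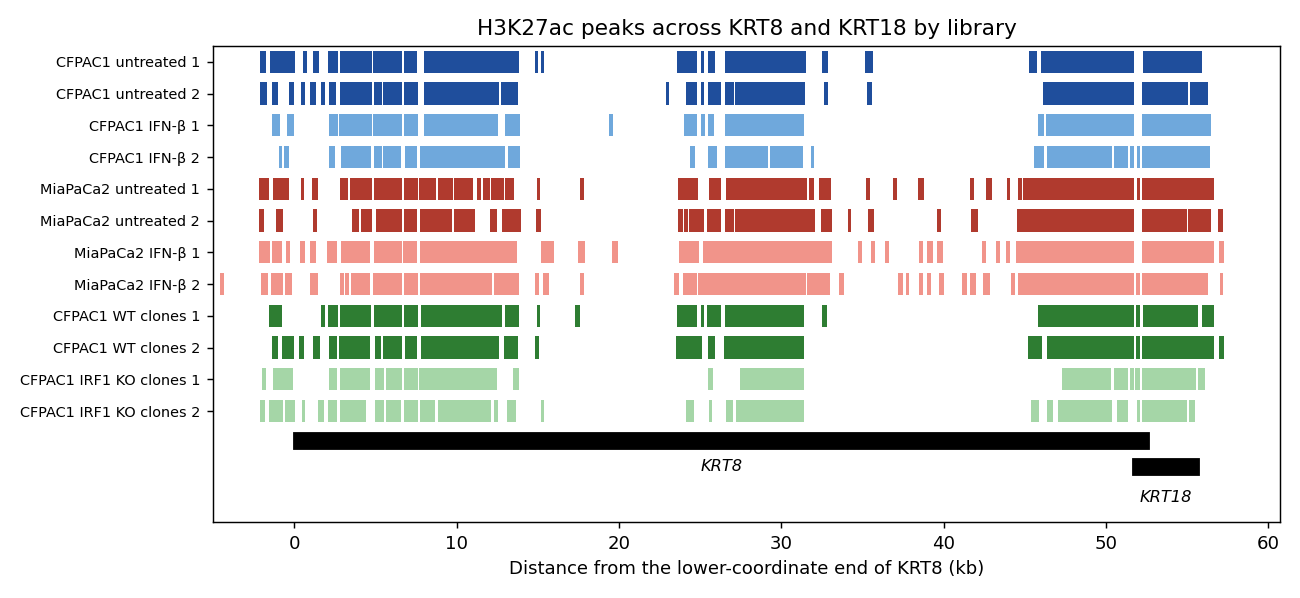
Peaks across the KRT8 and KRT18 windows in the 12 libraries (rows, coloured by group), with distance from the lower-coordinate end of KRT8 in kb on the x axis and the genes as black bars. Every row is filled in 3 blocks, the last of which spans the overlap of KRT8 and KRT18, and the IRF1 knockout rows hold shorter peaks near 23.6 to 27.2 kb than the wild-type rows.

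KRT19, a small type I keratin of ductal epithelium (chr17:41523617-41528308), was covered almost end to end in both lines. It had 14357 and 14121 bp in untreated CFPAC1, 12833 and 13020 bp in treated CFPAC1, 14014 and 13221 bp in untreated MiaPaCa2 and 14001 and 14128 bp in treated MiaPaCa2. The treated MiaPaCa2 libraries lay above the treated CFPAC1 libraries, and the untreated MiaPaCa2 libraries lay below the untreated CFPAC1 libraries. The fitted change was 0.18 ± 0.12 (limma adjusted p = 0.22) untreated, with a sign that turned to -0.06 without centring, and 0.30 ± 0.12 (limma adjusted p = 0.0578) treated. Of the window 11333 bp (77.1%) was under peaks in all 12 libraries. The widest KRT19 peak spanned 6990 to 13124 bp in CFPAC1 and 6026 to 7702 bp in MiaPaCa2, so that similar covered lengths were made of 1 to 4 peaks in CFPAC1 and 3 or 4 in MiaPaCa2. The window holds 14692 bp, which caps the covered length of KRT19.

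KRT80, a type II keratin (chr12:52168996-52192014), was longer in MiaPaCa2. It had 20638 and 15167 bp in untreated CFPAC1, 12886 and 13423 bp in treated CFPAC1, 27380 and 26151 bp in untreated MiaPaCa2 and 24770 and 28186 bp in treated MiaPaCa2. The wild-type clones had 19011 and 17330 bp and the knockout clones 19181 and 22513 bp, so all 4 MiaPaCa2 libraries lay above all 8 CFPAC1 libraries. The change was 0.82 ± 0.17 (limma adjusted p = 0.0024) untreated and 1.16 ± 0.17 (limma adjusted p = 0.000358) treated, and both calls held in all 24 alternative settings. Without centring the changes were 0.58 and 0.98. The widest KRT80 peak was 15475 to 18075 bp in MiaPaCa2 and 7023 to 13253 bp in CFPAC1. The stretch chr12:52185387-52192318, which reaches past the upper-coordinate end of the gene, was under peaks in all 12 libraries, and in MiaPaCa2 the peak over it ran further into the gene body. The gene body held 17967 to 20058 covered bp in MiaPaCa2 and 8039 to 16783 bp in CFPAC1.

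KRT81, a type II hair keratin (chr12:52285913-52291534), had 4604 and 5323 bp in untreated CFPAC1, 3068 and 2798 bp in treated CFPAC1, 107 and 1282 bp in untreated MiaPaCa2 and 282 and 2355 bp in treated MiaPaCa2. Each MiaPaCa2 group lay below its CFPAC1 group. The change was -2.15 ± 0.65 (limma adjusted p = 0.0179) untreated and -1.02 ± 0.65 (limma adjusted p = 0.21) treated. The untreated call was lost without untreated CFPAC1 replicate 1 (adjusted p = 0.0573), untreated CFPAC1 replicate 2 (0.0734) or untreated MiaPaCa2 replicate 1 (0.137). In all 8 CFPAC1 libraries the widest peak lay across the lower edge of the window, outside the KRT81 gene and inside KRT86, with 1295 to 2093 bp of it within the window. The KRT81 gene body itself had 468 to 2474 covered bp in CFPAC1 and 0 to 218 bp in MiaPaCa2. KRT86 was called lower in untreated MiaPaCa2 as well (-1.58 ± 0.51, limma adjusted p = 0.0233), but the windows share peaks and this is not a separate observation.

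None of the 4 basal keratins had any covered bp inside its gene body in any of the 12 libraries. Their values came from peaks in the flanks only. KRT5 (chr12:52514575-52520394), the type II keratin of basal cells, had peaks 0.4 to 3.2 kb beyond its upper-coordinate end, next to the promoter shown above but not in it. KRT14 (chr17:41582279-41586895), its type I partner, had CFPAC1 peaks 1.9 to 3.5 kb beyond its lower-coordinate end. KRT6A (chr12:52487176-52493257), a keratin of wound and tumour epithelium, had peaks in 2 libraries only, treated CFPAC1 replicate 1 with 620 bp and IRF1 knockout clone 1 with 587 bp. KRT17 (chr17:41619442-41624575), a type I stress keratin, had the single peak already given. The values given for these genes are those of flanking stretches.

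The KRT5 stretch was found in CFPAC1. It measured 1883 and 1585 bp in untreated CFPAC1, 932 and 926 bp in treated CFPAC1, 1496 and 1717 bp in the wild-type clones and 2293 and 0 bp in the knockout clones, and 0 bp in all 4 MiaPaCa2 libraries. Only knockout clone 2 among the CFPAC1 libraries was without it. KRT5 thus passed the coverage filter through CFPAC1 alone and could hardly come out higher in MiaPaCa2. The change from CFPAC1 to MiaPaCa2 was -1.92 ± 0.62 (limma adjusted p = 0.0237) untreated and -1.34 ± 0.62 (limma adjusted p = 0.0948) treated. A group with both libraries at 0 bp hardly adds to the fitted spread. The untreated call was lost without any 1 of the 4 untreated libraries (adjusted p = 0.0668 to 0.0946), with peaks of -log10 q of at least 5 (0.0631) and with 2 kb flanks (0.0646), and the treated difference was called with a pseudocount of 100 bp (0.0442). The treated difference was also called with only the compared libraries in the fit (adjusted p = 0.00234), without knockout clone 1 (0.000609) and without knockout clone 2 (0.000512).

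The KRT14 stretch measured 1216 and 1186 bp in untreated CFPAC1, 1376 and 750 bp in the wild-type clones and 607 and 885 bp in the knockout clones. In treated CFPAC1 it was 0 bp in both libraries. In MiaPaCa2 it was 291 and 0 bp untreated and 0 and 0 bp treated. The 291 bp, chr17:41578370-41578660, overlapped no CFPAC1 peak but lay close to the nearest, which began at chr17:41578784 in untreated CFPAC1 replicate 1. The change between the untreated lines was -1.20 ± 0.25 (limma adjusted p = 0.00281). KRT14 was covered in 6 of 8 CFPAC1 and 1 of 4 MiaPaCa2 libraries. It thus passed the coverage filter through CFPAC1 and could hardly come out higher in MiaPaCa2. The treated groups of both lines, at 0 bp in both libraries, hardly add to the fitted spread. In both untreated and neither treated bulk CFPAC1 library, peaks held chr17:41578879-41579679 (801 bp) and chr17:41579840-41580159 (320 bp), which lie 3.4 to 2.1 kb from the gene.

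**Figure D5:**
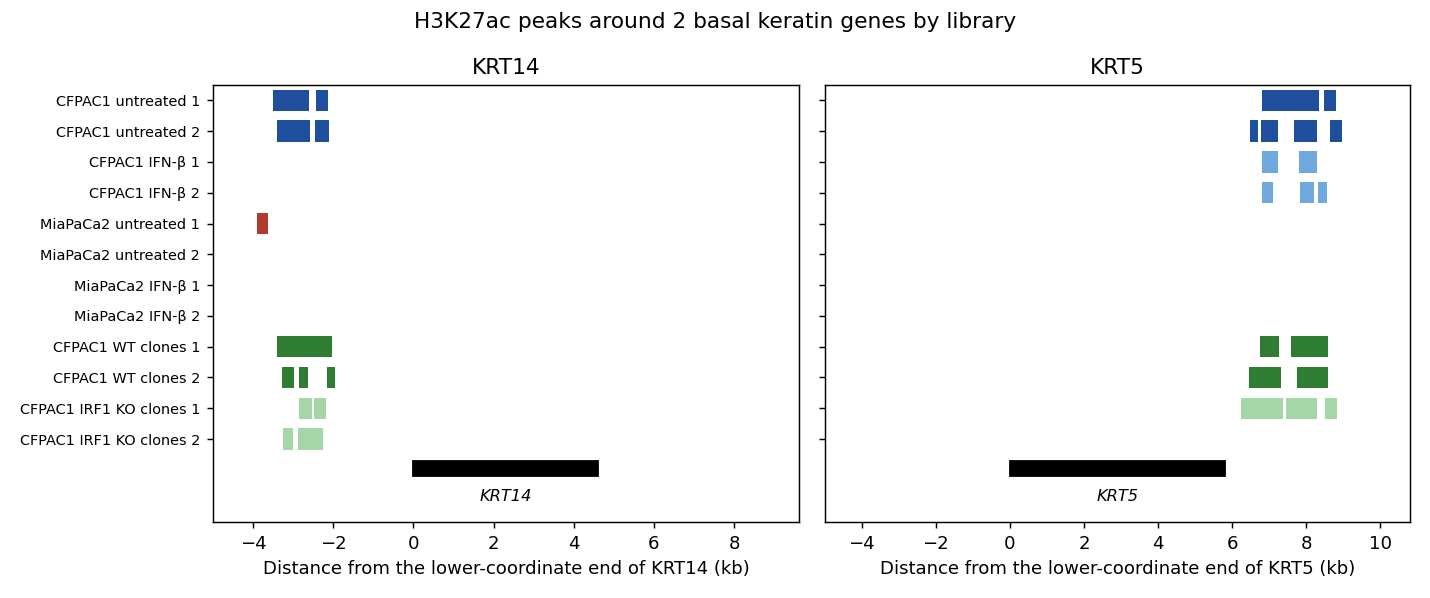
Peaks in the windows of KRT14 (left) and KRT5 (right) in the 12 libraries (rows, coloured by group), with distance from the lower-coordinate end of each gene in kb on the x axis and the gene as a black bar. No peak touches either gene; the KRT14 stretch is missing in both treated CFPAC1 rows and the KRT5 stretch in all MiaPaCa2 rows and in IRF1 knockout clone 2.

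IFN-β in CFPAC1 gave 1 call among the 9 tested members, against 1.01% of all tested genes called. KRT14 was lower in the treated cells, by the values above (log2 change -1.60 ± 0.25, limma adjusted p = 0.0233). As stated above, the groups at 0 bp hardly add to the spread behind this p-value. The call was lost in 7 of 22 alternative settings that could test it: without any 1 of the 4 bulk CFPAC1 libraries (adjusted p = 0.107 to 0.207), with peaks of -log10 q of at least 5 (0.0917), with equal numbers of peaks per library (0.0752) and with only the bulk CFPAC1 libraries in the fit (0.0735). With windows of the gene body alone or of 2 kb flanks KRT14 had no coverage to test. The other 8 tested members were not called. The median change was -0.19 over the 9 members and 0.02 over all tested genes.

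In covered bp, 7 of the 9 members lay lower in both treated than in both untreated CFPAC1 libraries (KRT5, KRT7, KRT8, KRT14, KRT19, KRT80 and KRT81) and 1 lay higher (KRT18). Over all tested genes 42.1% lay lower and 9.65% higher in this way, and the treated libraries covered 76.6 and 76.9 Mb in all against 84.7 and 94.8 Mb in the untreated ones. The part of that difference in the members' values was not tested beyond the centring. After centring, the changes of KRT8 and KRT19 were 0.03 ± 0.15 and 0.03 ± 0.12, and without it they were -0.14 and -0.13. KRT80 had a change of -0.25 ± 0.17 (limma adjusted p = 0.686), KRT7 of -0.19 ± 0.61 (0.947), KRT81 of -0.51 ± 0.65 (0.897) and KRT5 of -0.48 ± 0.62 (0.897).

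IFN-β in MiaPaCa2 gave no call among the 9 tested members by limma, against 0.645% of all tested genes. At an unadjusted p under 0.05 there were 0 members, and 7.65% of all tested genes. KRT8 was the only member with both treated libraries above both untreated ones (change 0.33 ± 0.15, limma adjusted p = 0.688). No member lay lower in both treated libraries. The corresponding shares of all tested genes were 8.82% higher and 20.7% lower. Of the KRT8 window 2204 bp was covered in both treated and no untreated MiaPaCa2 library. KRT7 had a change of -1.25 ± 0.61 (limma adjusted p = 0.727), which rested on treated MiaPaCa2 replicate 1 with 0 bp. Without treated replicate 2, which had 2897 bp, it was called at -2.53 (limma adjusted p = 0.00193), with 1 treated library left and assumed to vary like the others.

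The IFN-β response was then compared between the lines as an interaction, in which 0.0614% of all tested genes and 0 of 9 members were called by limma. At an unadjusted p under 0.05 there was 1 member, and 7.35% of all tested genes. That member was KRT14, with a difference in response of 1.37 ± 0.35 (limma adjusted p = 0.331). KRT8, which lay lower after IFN-β in CFPAC1 and higher in MiaPaCa2 in covered bp, had a difference of 0.30 ± 0.22 (limma adjusted p = 0.891). Untreated MiaPaCa2 had no peak within the CFPAC1 stretch of KRT14, only 291 bp beside it in replicate 1. No loss of the stretch itself could thus have been measured in that line. Without treated MiaPaCa2 replicate 2, KRT7 was called at -2.33 (limma adjusted p = 0.0228).

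Between IRF1 knockout and wild-type clones no member was called by limma, against 1.24% of all tested genes. At an unadjusted p under 0.05 there were 2 members, and 14.6% of all tested genes. The 2 were KRT18 and KRT8, whose windows share 11006 bp (78.3% of the KRT18 window), so they are not wholly separate observations. KRT18 had 9454 and 10028 bp in the wild-type clones and 8189 and 7372 bp in the knockout clones (change -0.44 ± 0.14, limma adjusted p = 0.179). KRT8 had 30282 and 30420 bp in the wild-type clones and 23790 and 25480 bp in the knockout clones (change -0.43 ± 0.15, limma adjusted p = 0.237). Both knockout clones lay below both wild-type clones at each gene, and also at the 51664 bp of the KRT8 window outside the KRT18 window, where the wild-type clones had 20828 and 20392 bp and the knockout clones 15601 and 18108 bp. In covered bp, 2 of 9 members lay lower in both knockout clones and 1 (KRT80) higher, against 12.3% and 26.2% of all tested genes.

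Of the KRT8 window 3059 bp, and of the KRT18 window 1210 bp, was covered in both wild-type and no knockout clone. The longest of these stretches, chr12:52920785-52921345 (561 bp), lies 23.6 to 24.2 kb into the KRT8 gene, and the next, chr12:52953276-52953822 (547 bp), lies beyond KRT18. KRT19 had 12860 and 12206 bp in the wild-type and 12353 and 13060 bp in the knockout clones, which overlapped (change -0.11 ± 0.12, limma adjusted p = 0.719). KRT81 had 5234 and 2603 bp in the wild-type and 5840 and 2206 bp in the knockout clones, so that clones of 1 group differed more than the groups did. KRT5 differed in the same way between the knockout clones, with 2293 and 0 bp, and its change was -0.96 ± 0.62 (limma adjusted p = 0.53). Without knockout clone 1, the clone with 0 bp is the only one left, and KRT5 was then called (-2.23, limma adjusted p = 0.00276) with the spread taken from the other groups.

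Wild-type clones and untreated bulk CFPAC1 differ at least in cloning and in the vector. By limma 0 of 9 members were called, against 0.0184% of all tested genes. At an unadjusted p under 0.05 there were 0 members, and 5.96% of all tested genes. Over the 8 members covered in these libraries the median change was -0.02, against 0.02 over all such genes.

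Other keratins and the proteins that keratins attach to were read from 6 lists. Of 2 other keratins of simple epithelium, KRT23 was called lower in untreated MiaPaCa2 than in untreated CFPAC1 (0 bp in both against a mean of 8813 bp, limma adjusted p = 6.29e-08). Of 17 other keratins of stratified epithelium 9 were tested, and 4 were lower (KRT10, KRT12, KRT78 and KRT79) and 0 higher. KRT78 and KRT79 each had 206 bp in untreated MiaPaCa2 replicate 1 and 0 bp in the other MiaPaCa2 libraries. Whether their windows share peaks was not examined, so they may not be separate observations. Of 25 other hair and root sheath keratins 9 were tested, and 4 were lower and 0 higher. KRT86, which shares peaks with KRT81, was among the lower ones. Several tested keratins, such as KRT12, KRT23, KRT37 and KRT39, had 0 bp in every MiaPaCa2 library and passed the coverage filter through CFPAC1 alone. Such genes could hardly be called higher in MiaPaCa2, so the directions counted for these keratins were in part fixed in advance. Of 14 tested desmosome genes, whose products tie keratin filaments to cell junctions, 10 were lower and 2 higher. Periplakin (PPL) had a change of -3.71 ± 0.15 and plakoglobin (JUP) of -2.38 ± 0.41.

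Of 9 tested hemidesmosome genes, whose products tie keratins to the basement membrane, 4 were lower and 2 higher in untreated MiaPaCa2. The laminin chain LAMA3 (-4.68 ± 0.24) was lower, and the collagen COL17A1 (1.42 ± 0.17) was higher. Of 13 other intermediate filament genes 8 were higher and 1 lower. Vimentin (VIM), an intermediate filament protein of mesenchymal cells, had a mean of 13748 bp in untreated MiaPaCa2 and 3841 bp in untreated CFPAC1 (1.95 ± 0.12, limma adjusted p = 1.24e-06). Other mesenchymal markers went the other way between the untreated lines. CDH2 had 0 bp in both MiaPaCa2 libraries against 6364 and 19022 bp in CFPAC1, and FN1 0 bp against 1940 and 3624 bp. ZEB1 had 3532 and 3850 bp against 7984 and 10934 bp. SPARC had 0 bp in both lines, and TWIST1 had 407 bp in MiaPaCa2 replicate 2 alone. The list counts stand beside the same 36.1% and 22.5% of all tested genes, or 21.5% and 26.3% without centring. Apart from the nestin gene NES, lower after IFN-β in CFPAC1 (-1.81 ± 0.25, limma adjusted p = 0.0152), none of these lists had a called gene for IFN-β in either line, for the knockout clones or for the wild-type clones against bulk cells.

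Pearson's r between genes was taken on the centred log values used in the tests, not on covered bp. It is a description over libraries that share lines and peak calling. The genes that followed KRT8, KRT19 and KRT80 most closely over the 12 libraries were found in this way. For KRT8 they were NR2F2 (r = 0.965), ZNF75A and TIGD7 (0.963 each, with identical values in all 12 libraries). For KRT19 they were ID1 (0.963), SERPINB1 (0.961) and H2AC7 (0.958). For KRT80 they were VPS52 (0.986), KCNN1 (0.983) and KLF16 (0.981). The mean subtracted from a library is the same for all genes, so a high r need not mean similar covered lengths. KRT19 had 14014 and 13221 bp in untreated MiaPaCa2 and 14357 and 14121 bp in untreated CFPAC1. ID1 had the opposite order, with 10716 and 9776 bp in untreated MiaPaCa2 and 8655 and 8809 bp in untreated CFPAC1. NR2F2 ranged from 19402 to 21657 bp and KRT8 from 23790 to 38014 bp.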

How the data were processed

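H3K27ac ChIP-seq peak lists of 12 libraries were used. Per the submitters' processing notes, Trimmomatic 0.38, Bowtie2 2.2.6, SAMtools and MACS2 2.1.0.20150731 were used on GRCh38; the control library and filters are not given in the sources used here. The authors deposited 1 narrowPeak list per library with peak starts and ends, a fold enrichment ratio and a -log10 q per peak; these scales were used only to describe or filter peaks within a list. Peaks elsewhere than chromosomes 1 to 22 and X (0 to 55 per library) were left out. The 10 members, the lists and the tests were chosen with earlier results of these data known. Covered bp were counted in each RefSeq gene (GRCh38.p14) with 5 kb either side. Changes of log2(covered bp + 500) were tested with limma 3.58.1 (R 4.3.3) as 1 model of the 6 groups (trend in the prior, 6 residual degrees of freedom), over 16280 genes covered in at least 2 libraries; the script was tested on simulated data. All 10 members were named, with up to 6 called genes per list considered, genes whose windows overlap and the 3 genes most like KRT8, KRT19 and KRT80. Python 3.11.15, numpy 2.4.6 and pandas 2.3.3 were used. Alternatives covered the window, pseudocount, filter, centring, q minimum, peak number, libraries in the fit, replicate block and each library left out.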

Additional observations from a re-analysis of the deposited data

How the results depend on the processing

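The number of keratin members called between the untreated lines was 5, and 3 with the gene body alone and 3 with 2 kb flanks; leaving out single libraries gave 2 to 6. With a pseudocount of 100 bp it was 6, of which 3 were higher and 3 lower. Between the treated lines it was 3, and 5 with a pseudocount of 100 bp. For IFN-β in CFPAC1 it was 1, and 0 with peaks of -log10 q of at least 5, with equal numbers of peaks, with the gene body alone, with 2 kb flanks and with only the compared libraries; leaving out single libraries gave 0 to 1. It was 0 for IFN-β in MiaPaCa2, for the knockout clones and for the interaction, and 0 to 1 when single libraries were left out. The replicate block gave 5, 3, 1, 0, 0, 0 and 0 calls in the 7 comparisons, the same as without it. Replicate differences of 2 groups correlated at -0.105 to 0.247, the highest for untreated and treated CFPAC1. These values do not settle whether the replicate numbers pair the libraries, which the labels do not state. Of 1439 single-member values under 24 alternatives, 0 called values changed sign, 22 lost their call and 15 gained one. Another 50, called under neither setting, changed sign, so the direction of uncalled changes was less steady. Depth is unknown, so short or missing peaks at KRT5, KRT6A, KRT14 and KRT17 cannot be told from peaks under the calling threshold.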
